A study of Rattus norvegicus with 21 samples.

Results

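Liver gene expression after the highest dose of 2-ethylhexyl diphenyl phosphate (EHDP, which the sample labels spell EDHP) is described here against the vehicle, across all genes measured. EHDP is an organophosphate ester, a class of plasticisers and flame retardants. Arrays were chosen by the dose in their titles, 978.5 mg/kg for 3 arrays and 0 mg/kg for 6, which makes 9 of the 21 arrays of the series. These 9 arrays were made from livers of male rats of the Harlan Sprague-Dawley stock. Treated rats received EHDP in corn oil by gavage once a day, 4 doses in all, and vehicle rats received corn oil alone by the same route. The left liver lobe was sampled on day 5. The protocol equates the dose with 2.7 mmol/kg and speaks of 5 vehicle rats, but the titles give dose 0 to 6 arrays, which were kept as 6 vehicle samples. The titles do not say whether any of these arrays shared a rat, and the p-values treat the 6 as separate rats. The labels give no litter, cage or hour of sampling. The p-values therefore measure only the spread between arrays, estimated within the groups of all 21 arrays. Each array averages every cell type of the lobe, and in such bulk tissue fewer cells of a type and less RNA per cell cannot be told apart.

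Values are log2 signals after robust multi-array averaging (RMA), which puts all arrays on one scale. Array medians lay between 6.33 and 6.41 over the series. The table holds no detection calls, and differences of genes near the lowest signals are understated. Differences between the groups cannot check the liver label, which was taken as given. Of 15 hepatocyte markers none was called by limma (4 had an unadjusted p under 0.05), and their median difference was -0.06. Albumin (Alb), one of them, lay between 15.30 and 15.35 on all 9 arrays, near the top of the array's range where signals can be compressed, so its level says little about a difference.

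As background, hepatocytes sense foreign, fat-soluble compounds through the nuclear receptors CAR and PXR, which switch on oxidising enzymes, conjugating enzymes and export pumps. Reactive products are met by NRF2, a transcription factor that its partner KEAP1 otherwise sends to breakdown, and which drives glutathione synthesis and antioxidant enzymes. ATF4, another stress factor, drives amino acid synthesis and uptake when amino acids run short or proteins fold poorly. Hepatocyte metabolism also follows the circadian clock and the pulses of growth hormone, which give male and female rat livers different enzymes.

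At 978.5 mg/kg the liver held more mRNA for detoxifying enzymes, glutathione and serine synthesis, proteasome subunits and clock output genes. It held less for the taurine transporter and for 4 of 6 clock activators and late-night genes. It also held less for smaller parts of the growth hormone axis (8 of 27 genes) and of the immediate early and growth arrest genes (6 of 39). A gene was called when its limma p, adjusted over all 14218 genes by the Benjamini-Hochberg method, was under 0.05. In all, 1457 genes were called (10.2% of those tested), 878 of them higher (6.18%) and 579 lower (4.07%). Most differences were modest. Over the called genes the median log2 difference was 0.43 for rises and -0.43 for falls, where the median SE over all genes was 0.10, and 1096 of them (75.2%) changed by less than 1.5-fold. At least 2-fold changes were measured for 102 genes (0.717%), and at least 4-fold changes for 10 rises and 7 falls. In 1925 genes (13.5%), called or not, the 3 treated arrays did not overlap the 6 vehicle arrays, and 1176 of these were called.

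**Figure D1:**
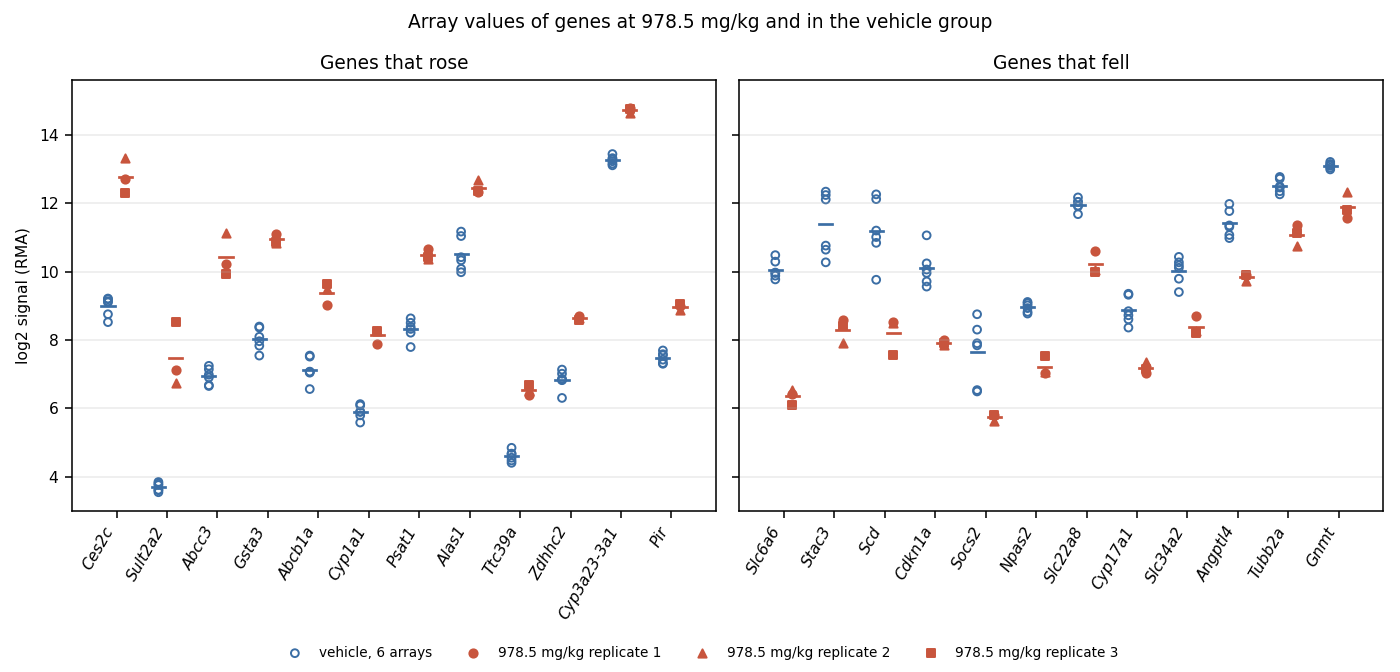
Log2 RMA signal of single genes on each array, for 12 genes that rose and 12 that fell at 978.5 mg/kg. Open circles are the 6 vehicle arrays, filled symbols the 3 treated arrays by replicate, and short lines the group means. In each of these genes the treated arrays lie wholly above or wholly below the vehicle arrays, and Sult2a2 differs most among treated arrays on the left, from 6.74 to 8.52.

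Below, "rose" and "fell" are kept for called genes. Differences are log2 values with limma's SE, n is 3 treated against 6 vehicle arrays throughout, and vehicle values are given as lowest, median and highest. A call named below also held when any one of the 9 arrays was left out, unless the text gives an array without which it was lost. Lists of genes are described by counts and medians, with the arrays whose omission moved a count by over 1.5 times, and counts of 1 to 3 calls mostly changed when a single array was left out. They are to be read against the median of -0.02 over all genes and the shares called given above.

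The 4 largest rises, those of Akr1b7, Ces2c, Sult2a2 and Abcc3, were all of genes in the CAR and PXR list. That list was chosen with earlier results of these data known, and Abcc3 also belongs to the NRF2 list. Of 24 measured targets of CAR and PXR, 18 rose, none fell and the median difference was 0.95. The carboxylesterase Ces2c, which splits ester bonds, stood at 12.72, 13.32 and 12.30 in the treated arrays against 8.52, 9.12 and 9.21 in the vehicle. The difference of 3.79 ± 0.26 is 13.8-fold (limma adjusted p = 6.13e-08), with replicate 2 the highest and no overlap. The conjugate pumps followed the same order among rats. Abcc3, which exports into blood, read 10.23, 11.12 and 9.94 against 6.65, 6.94 and 7.24 (3.50 ± 0.30), and Abcc2, which exports conjugates into bile, read 11.77, 12.21 and 11.64 against 10.88, 11.08 and 11.24 (0.79 ± 0.14, limma adjusted p = 0.00138). Replicate 2 was again the highest in both. The aldo-keto reductase Akr1b7 spread most among treated rats, at 9.07, 10.84 and 7.42 against 4.48, 4.88 and 6.82 (3.87 ± 0.71, limma adjusted p = 0.00158). Even its lowest treated array lay above the highest vehicle array.

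Cytochromes of subfamily 3A were already abundant in the vehicle and differed in how far they rose. Cyp3a23-3a1 read 14.79, 14.64 and 14.76 against 13.11, 13.26 and 13.44, a 2.78-fold rise with little spread. Cyp3a18 rose 2.10-fold, from a vehicle median of 13.11 to 14.17, 13.97 and 14.33. Cyp3a2, the adult male form, rose only 1.19-fold, at 14.74, 14.82 and 14.74 against 14.45, 14.52 and 14.60 (0.25 ± 0.06, limma adjusted p = 0.00766). These 3 values lie near the top of the array's range, where signals can be compressed, and near-identical family members may share probe signal, so the order of the rises within Cyp3a is uncertain. The phenobarbital-responsive Cyp2c6v1 rose 1.34-fold (0.42 ± 0.07) and cytochrome b5, Cyb5a, an electron donor to these enzymes, rose 1.39-fold (0.47 ± 0.07), with limma adjusted p-values of 0.000422 and 0.000187. Alas1, which starts the synthesis of the haem they carry, read 12.34, 12.67 and 12.35 against 9.98, 10.38 and 11.17 (3.86-fold). The cytochrome reductase Por read 10.56, 10.92 and 9.92 against 8.93, 9.56 and 10.54, so the groups overlapped. Its rise (0.83 ± 0.26, limma adjusted p = 0.0453) was lost without treated replicate 1 or 2 (adjusted p = 0.142 and 0.208) or vehicle replicate 1, 2, 3 or 4 (adjusted p = 0.0812, 0.0774, 0.0679 and 0.0776). The receptors themselves were not called: Nr1i2, which encodes PXR, differed by -0.17 ± 0.13 and Nr1i3, which encodes CAR, by -0.32 ± 0.31. Cyp2e1, an ethanol-oxidising cytochrome outside this set, stood at -0.04 ± 0.08.

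Conjugating enzymes rose in part. Of 12 measured genes of glucuronidation and its sugar supply 6 rose (median 0.26), of 22 glutathione transferase genes 11 rose (median 0.44), and neither list had a fall. Among the sulfotransferases and genes of sulfate supply, 3 of 19 rose and 5 fell (median -0.10), and the count of falls was 2 without treated replicate 2 or 3. Ugt2b1, which glucuronidates phenols and steroids, read 14.23, 14.29 and 14.01 against 12.46, 12.74 and 13.10 (2.60-fold, limma adjusted p = 1.94e-07). Ugt2a1 rose 2.87-fold (1.52 ± 0.15), Ugt2b10 2.03-fold (1.02 ± 0.10) and Ugt2b15 1.45-fold (0.54 ± 0.10), with limma adjusted p-values of 3.11e-06, 1.49e-06 and 0.00142. Sulfotransferases diverged. The hydroxysteroid sulfotransferase Sult2a2 read 7.13, 6.74 and 8.52 against 3.54, 3.68 and 3.84, close to the lowest signals of the arrays, so its 13.7-fold rise is understated. Sult2a6 read 12.89, 12.70 and 13.07 against 10.16, 10.93 and 11.36 (3.95-fold), whereas Sult1c3 fell from a median of 13.48 to 12.70, 12.50 and 13.01 (-0.71 ± 0.15, limma adjusted p = 0.00553). Members of the Ugt2b, Sult2a and Gsta families are similar in sequence, and how far their probe sets share signal was not tested. The epoxide hydrolase Ephx1 rose 2.01-fold, at 14.04, 13.94 and 13.77 against 12.64, 12.90 and 13.20.

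Pumps and carriers moved in both directions. The efflux pump Abcb1a read 9.01, 9.50 and 9.64 against 6.56, 7.06 and 7.54 (4.78-fold), and the uptake carrier Slco1a4 rose 1.76-fold (0.81 ± 0.13). The renal-type organic anion transporter Slc22a8 fell 3.34-fold, from a vehicle range of 11.68 to 12.17 with a median of 11.98 to 10.60, 10.06 and 10.00. Its relative Slc22a7 fell less, by 0.44 ± 0.07 (limma adjusted p = 0.000497). Of 39 aldo-keto reductase, alcohol and aldehyde dehydrogenase genes 13 rose and 1 fell (median 0.18). The retinaldehyde dehydrogenase Aldh1a1 read 13.79, 13.82 and 13.56 against 12.10, 12.42 and 12.74 (2.47-fold). Textbook targets of organophosphate esters, butyrylcholinesterase (Bche, 0.07 ± 0.10) and neuropathy target esterase (Pnpla6, 0.02 ± 0.09), were not called. These are mRNA values, and the activity of the 2 enzymes was not measured.

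Targets of NRF2 and genes of glutathione synthesis rose with the drug-metabolising genes, and several genes belong to both lists. Of 42 measured, 24 rose and 1 fell (median 0.47). The average of the list, relative to the vehicle mean, was 0.84, 0.63 and 0.57 in treated replicates 1, 2 and 3, against -0.08 to 0.04 in the vehicle arrays. Sequence around the start of some of these genes is shown because NRF2 is known to bind the antioxidant response element, whose core is TGACNNNGC. The stretches below, from RefSeq on build GRCr8, run 5′ to 3′ along each gene's strand and hold that core, or its reverse complement, in capitals. They were cut from windows of 250 bases before to 50 bases after the annotated start.
Gclm: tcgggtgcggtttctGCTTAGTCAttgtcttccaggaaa
Gsta3: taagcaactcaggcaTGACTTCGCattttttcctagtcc
Pir: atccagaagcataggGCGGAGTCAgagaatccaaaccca
Me1: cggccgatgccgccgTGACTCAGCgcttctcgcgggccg

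They lie at chr2:213031948-213031986 on the plus strand for Gclm, at chr9:31154957-31154995 on the plus strand for Gsta3, at chrX:33851140-33851178 on the minus strand for Pir and at chr8:96540388-96540426 on the minus strand for Me1. Searched on both strands, the core occurred in 14.4% of 11734 measured genes with a promoter window, in 17.4% of 742 windows of risen genes and in 12.6% of 460 windows of fallen genes. Of all NRF2 list members with a window, 6 of 35 held it (17.1%). Of the called ones 5 of 20 did (25%), the same share as in 32 windows of genes that fell at least 2-fold. The share was 17% in 53 windows of genes that rose at least 2-fold. A match describes the letters and does not show binding.

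The glutathione transferase Gsta3 read 11.11, 10.85 and 10.86 against 7.54, 8.03 and 8.39, and Pir, an iron-binding nuclear protein, read 8.98, 8.86 and 9.05 against 7.30, 7.49 and 7.69. Both separated the groups widely, by 2.91 ± 0.23 and 1.48 ± 0.12 (limma adjusted p = 1.31e-07 for each). The modifier subunit of glutathione synthesis, Gclm, read 12.08, 11.79 and 11.98 against 10.31, 10.88 and 11 (2.26-fold), and the catalytic subunit, Gclc, 11.16, 11.01 and 10.80 against 9.68, 10.24 and 10.45 (1.74-fold). Glutathione reductase, Gsr, which returns oxidised glutathione to use, rose from a vehicle median of 7.71 to 9.31, 9.15 and 9.19. The cystine carrier gene Slc7a11 rose 1.88-fold, from a low vehicle median of 5.43 to 6.43, 6.27 and 6.30. The NADPH-making malic enzyme Me1 read 10.78, 10.24 and 10.34 against 8.28, 8.89 and 9.25 (2.98-fold). Replicate 1 was the highest of the treated arrays in Me1, Gclm, Gclc, Gsr and Slc7a11.

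Smaller rises in the same list were those of the biliverdin reductase Blvrb (0.71 ± 0.11), the thioredoxin reductase Txnrd1 (0.51 ± 0.09), thioredoxin itself, Txn1 (0.35 ± 0.07), and the microsomal glutathione transferase Mgst2 (0.74 ± 0.08). The quinone reductase Nqo1 read 10.53, 10.27 and 9.76 against 8.73, 8.94 and 9.05. Gsta4, Gstt3 and Gstm4 rose 2.05-fold, 2.44-fold and 1.62-fold. The sulfiredoxin Srxn1 rose by 0.82 ± 0.12 on its brightest probe set, but its probe sets ranged from 0.01 to 0.82. Keap1 itself rose 1.22-fold (0.29 ± 0.07, limma adjusted p = 0.00776), with 0.68 on its other probe set, while Nfe2l2, which encodes NRF2, was not called (-0.19 ± 0.16). Hmox1, a haem oxygenase often read as an NRF2 target, stood at 9.45, 9.78 and 8.88 against 8.77, 9.15 and 9.98, so the groups overlapped (0.14 ± 0.26, limma adjusted p = 0.786). The glutathione peroxidase Gpx2 was high in treated replicate 1 alone, at 8.90, 6.21 and 5.89 against 4.57, 4.77 and 6.10, and was not called (2.01 ± 0.82, limma adjusted p = 0.131).

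Among 7 targets of the aryl hydrocarbon receptor, which senses planar aromatic compounds, 2 rose and 1 fell. Cyp1a1 read 7.88, 8.26 and 8.25 against 5.58, 5.89 and 6.12. Cyp1a2 went the other way, at 13.11, 12.89 and 12.97 against 13.30, 13.45 and 13.66, and that fall was lost without treated replicate 2 or 3 (limma adjusted p = 0.0914 and 0.0962). The receptor gene Ahr was not called (0.07 ± 0.10).

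Proteasome subunits rose together by small amounts. The proteasome breaks down proteins tagged with ubiquitin, and its genes share NRF1 and NRF2 among their known regulators. Of 40 measured subunit and assembly genes 27 rose and none fell, with a median difference of 0.32. The list averages were 0.39, 0.31 and 0.28 in treated replicates 1, 2 and 3 against -0.07 to 0.11 in the vehicle arrays, so the groups did not overlap. The count of rises was 17 without treated replicate 1 and ran up to 28 when other arrays were left out, while the median stayed between 0.28 and 0.35.

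The clearest single subunit was Psmd5, a chaperone of the 19S cap, at 10.62, 10.45 and 10.40 against 9.70, 9.80 and 9.90 (0.70 ± 0.07, limma adjusted p = 3.35e-06). In the 20S core, Psma1 read 11.63, 11.50 and 11.66 against 10.78, 10.87 and 11.25, Psma5 rose 1.51-fold (0.60 ± 0.07) and Psmb4 1.36-fold (0.44 ± 0.06). The ATPases of the cap, Psmc3 and Psmc6, rose 1.39-fold and 1.47-fold, and the deubiquitinase Psmd14 rose 1.39-fold. Psme1, an activator of the core, rose by 0.40 ± 0.07 on one probe set and stood at 0.08 on the other. The interferon-inducible core subunits were not called: Psmb8 differed by -0.23 ± 0.23, Psmb9 by 0.38 ± 0.21 and Psmb10 by -0.06 ± 0.14. Psmb8 read 10.34, 10.91 and 10.14 against 10.14, 10.79 and 11.02, and its groups overlapped.

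**Figure D2:**
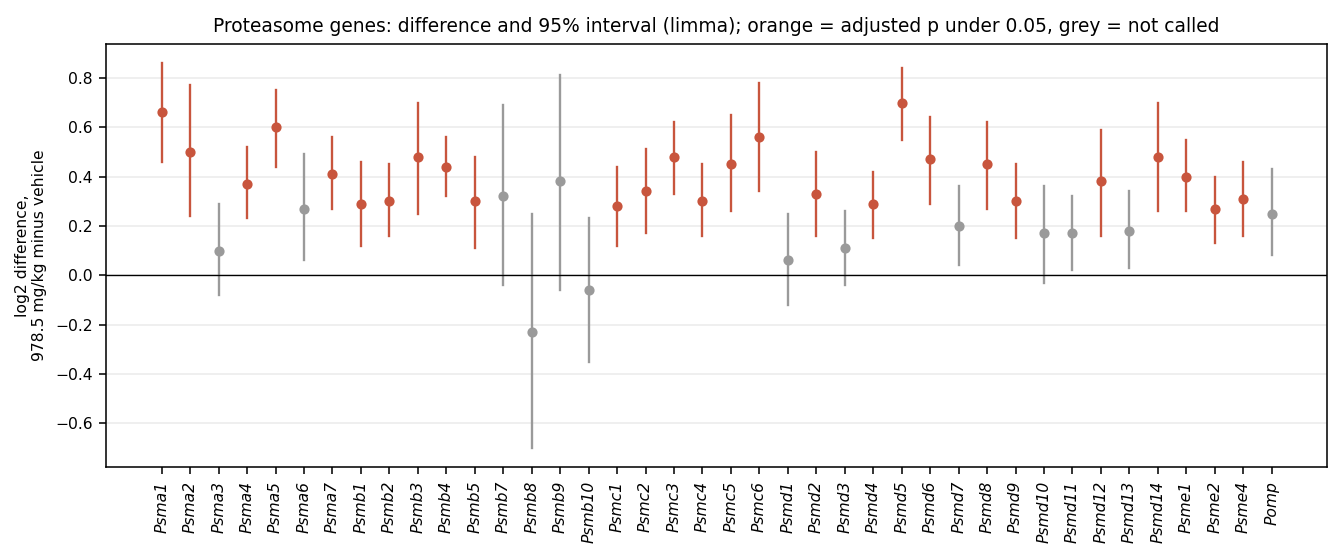
Log2 difference of each measured proteasome gene between 978.5 mg/kg and vehicle, with its 95% interval from limma as the bar. Called genes are orange and others grey. Of 40 genes 27 are called and all of those lie above 0. Of the immunosubunits, none of them called, Psmb8 and Psmb10 lie below 0 and Psmb9 lies above it.

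Genes of serine and asparagine synthesis rose. In the list of ATF4, serine and asparagine genes, 12 of 35 rose and none fell (median 0.26), and the count ran from 10 to 13 over fits without one array. The 3 enzymes that make serine from a glycolytic intermediate rose together. Phgdh, the first, read 10.46, 10.01 and 10.09 against 7.99, 8.52 and 9.17 (3.14-fold, limma adjusted p = 0.0019). Psat1, the next, read 10.66, 10.36 and 10.43 against 7.79, 8.35 and 8.63 (4.53-fold). Psph, the last, rose less, at 9.35, 8.96 and 9.42 against 8.31, 8.5 and 8.84 (1.64-fold, limma adjusted p = 0.00163). Asparagine synthetase, Asns, read 10.02, 9.74 and 9.72 against 7.51, 7.95 and 8.48. None of these 4 enzymes had a treated array within the vehicle range.

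Other members included Ddit4, an inhibitor of mTORC1, at 9.68, 8.87 and 8.60 against 6.45, 7.45 and 7.91 (3.35-fold, limma adjusted p = 0.00292). The leucine and glutamine carrier Slc7a5 and its partner chain Slc3a2 rose by 0.74 ± 0.15 and 0.74 ± 0.16. The stress gene Trib3 was not called (0.68 ± 0.22, limma adjusted p = 0.0549), nor were the secreted stress hormones Fgf21 (0.50 ± 0.48) and Gdf15 (0.39 ± 0.21). Of 38 endoplasmic reticulum chaperone genes 1 rose and 2 fell (median 0.01).

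Aminoacyl-tRNA synthetases, which load amino acids onto tRNAs and count ATF4 among their regulators, rose in small part. Of 32 measured, 7 rose and 1 fell (median 0.11), but the count of rises was 1 without treated replicate 3, 2 without treated replicate 1, 3 without vehicle replicate 2 and 4 without vehicle replicate 1 or 4. Aars1, for alanine, was the member whose call held in each such fit, at 12, 11.93 and 11.87 against 11.46, 11.56 and 11.71 (0.36 ± 0.08, limma adjusted p = 0.00441). Iars1, for isoleucine, read 9.97, 9.58 and 9.82 against 8.80, 9.15 and 9.63, with another probe set at 0.13, and its rise (0.57 ± 0.16) was lost without treated replicate 1 or 3 (limma adjusted p = 0.137 and 0.107) or without vehicle replicate 2 (0.0525). Promoter letters are shown for Iars1 because ATF4 is known to bind the element TGATGCAA, here in capitals as its reverse complement.
Iars1: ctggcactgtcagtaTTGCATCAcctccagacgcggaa

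The Iars1 stretch, from the same RefSeq windows on GRCr8, lies at chr17:15193654-15193691 on the minus strand. Searched on both strands, the element occurred in 0.614% of the windows of measured genes and in 7 of 30 windows of the synthetase list (23.3%). It also occurred in 5 of 30 windows of the ATF4, serine and asparagine list, but in 0 of 53 windows of genes that rose at least 2-fold. Among called members alone, it occurred in 3 of 8 windows of the synthetase list and in 1 of 11 of the ATF4 list.

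Lipid genes moved in several directions. Of 21 measured cholesterol synthesis genes 13 rose and none fell (median 0.68). The list averages were 0.93, 0.28 and 0.61 in treated replicates 1, 2 and 3 against -0.36 to 0.36 in the vehicle arrays, so replicate 2 lay inside the vehicle range. The count of rises was 3 without treated replicate 1 and 10 without treated replicate 3. Sc5d, a late desaturase of the pathway, differed from that order, with replicate 3 the highest at 12.48, 12.27 and 12.70 against 11.50, 11.65 and 11.93 (1.74-fold), although its probe sets ranged from 0.29 to 0.90. Msmo1, a sterol oxidase, read 13.43, 12.25 and 12.70 against 11.20, 11.41 and 12.28, and Fdft1, the squalene synthase, 12.19, 11.64 and 11.72 against 10.74, 11.03 and 11.50. Sqle, the next enzyme, rose by 1.14 ± 0.28 but not without treated replicate 1 (limma adjusted p = 0.102). Of 19 sterol sensing and uptake genes 2 rose and 2 fell.

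Scd, which makes monounsaturated fatty acids, fell furthest among lipid genes, to 8.53, 8.48 and 7.57 from 9.76, 11.10 and 12.26, a wide vehicle range. Elovl5, an elongase of polyunsaturated fatty acids, fell by 0.42 ± 0.08. Elovl6, an elongase of saturated fatty acids, rose by 1.38 ± 0.33 with the groups overlapping, and that call was lost without treated replicate 1 (limma adjusted p = 0.112). The master regulator Srebf1 (-0.24 ± 0.30) and the fatty acid synthase Fasn (0.40 ± 0.31) were not called. In the list of PPARA, fasting and lipid droplet genes 2 of 34 rose and 7 fell (median -0.13), and the falls numbered 3 without treated replicate 1 or 3. The coat proteins of lipid droplets went opposite ways. Plin2 fell to 12.27, 11.82 and 11.95 from 12.72, 13 and 13.40, while Plin3 rose to 10.51, 10.24 and 10.13 from 9.50, 9.55 and 9.96. Cidea, which fuses droplets, rose to 10.82, 10.92 and 9.72 from 7.56, 8.40 and 8.74 (4.45-fold, limma adjusted p = 0.00176). Angptl4, an inhibitor of lipoprotein lipase, fell to 9.91, 9.73 and 9.89 from 10.98, 11.33 and 11.98. Cyp4a1, the classical marker of peroxisome proliferators in rat liver, was not called (-0.46 ± 0.26). Ppara itself read 6.14, 6.39 and 6.41 against 5.75, 5.80 and 5.85, a rise of 0.51 ± 0.13 that was lost without treated replicate 2 or 3 (limma adjusted p = 0.0594 and 0.0909).

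Of 24 apolipoprotein and lipoprotein secretion genes 2 rose and 5 fell (median -0.06), and the falls numbered 2 without treated replicate 3. Pltp, which moves phospholipids between lipoproteins, fell to 8.81, 8.70 and 8.43 from 9.39, 9.79 and 9.95 (2.14-fold, limma adjusted p = 0.00221). Apoa4 fell by 0.90 ± 0.24, but not without treated replicate 1 or 3 (limma adjusted p = 0.0648 and 0.198). Of 28 genes of bile acid synthesis and transport 6 rose and 3 fell (median 0.07). Fgfr4, the receptor of the gut signal that restrains bile acid synthesis, read 9.04, 9.0 and 9.01 against 9.38, 9.46 and 9.63. Cyp7a1, the rate-limiting enzyme, read 12.17, 11.58 and 11.81 against 9.87, 11.12 and 11.86, and was not called (0.74 ± 0.39).

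**Figure D3:**
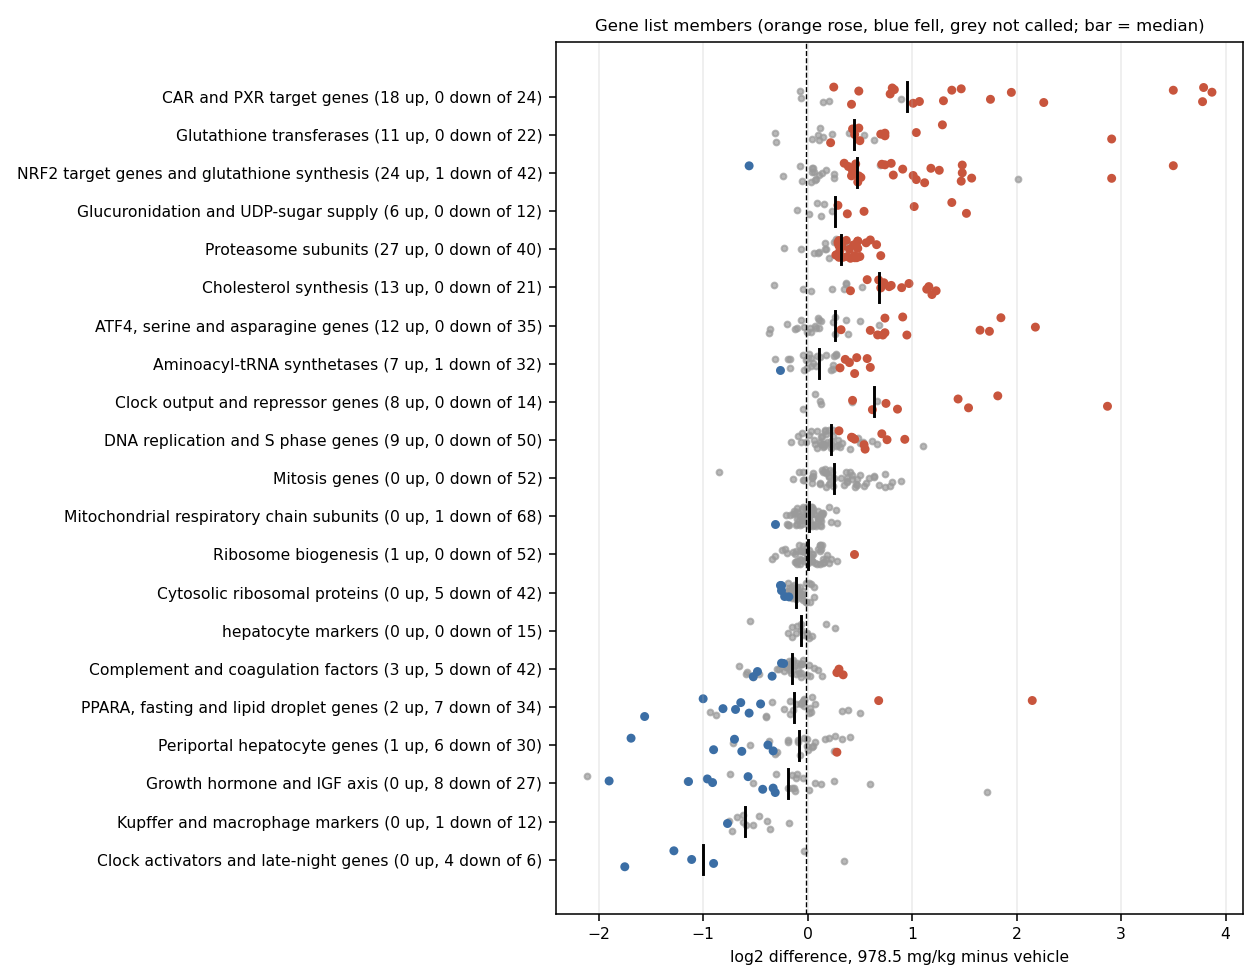
Log2 difference between 978.5 mg/kg and vehicle for the members of 21 gene lists, 1 point per gene. Orange points rose, blue points fell and grey points were not called, the black bar is the list's median and the dashed line the median of all genes (-0.02). The CAR and PXR list has its median at 0.95, and the list of clock activators and late-night genes at -1.0. No mitosis gene and 1 of 68 respiratory chain genes is coloured.

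Genes of taurine uptake and methyl group handling were among the falls. Slc6a6, the taurine transporter, read 6.41, 6.54 and 6.09 against 9.77, 9.97 and 10.48, the largest fall of all called genes with separate groups (-3.71 ± 0.27), with -2.16 on its other probe set. Gnmt, which disposes of excess methyl groups with glycine, fell to 11.57, 12.34 and 11.79 from 12.99, 13.11 and 13.21 (2.30-fold, limma adjusted p = 1.76e-05). Cbs, the entry to cysteine synthesis, fell by 0.40 ± 0.09, a call lost without treated replicate 3 (limma adjusted p = 0.102). Of the 29 taurine, cysteine and methionine genes 3 rose and 3 fell (20.7% called, against 10.2% of all genes).

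In nitrogen metabolism, Oat, the ornithine aminotransferase, fell to 9.47, 9.64 and 9.83 from 10.57, 11.04 and 11.62 (2.62-fold, limma adjusted p = 0.000847). The histidine-degrading enzyme gene Hal fell by 0.63 ± 0.14 and the argininosuccinate lyase Asl by 0.38 ± 0.08, while Arg1, the arginase that ends the urea cycle, rose by 0.28 ± 0.06. Of the 20 urea cycle, ornithine and glutamine genes 2 rose and 5 fell (median -0.17), and 3 fell without treated replicate 3. The tryptophan enzyme Kynu fell by 0.61 ± 0.12, and the valine enzyme Hibch rose to 11.21, 11.05 and 11.26 from 9.69, 10.21 and 10.45. The polyamine acetylase Sat1 fell by 0.80 ± 0.13. Pck1, the gatekeeper of glucose synthesis, was not called (-0.09 ± 0.21).

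Part of the growth hormone axis fell. Of 27 genes of the growth hormone and IGF axis 8 fell and none rose (median -0.19), and the count ran from 4 without treated replicate 1 to 10. The feedback inhibitor Socs2, an early target of growth hormone, read 5.80, 5.62 and 5.80 against a wide vehicle range of 6.49, 7.87 and 8.75 (-1.90 ± 0.41, limma adjusted p = 0.00513). Its relative Cish was not called (-1.15 ± 0.42, limma adjusted p = 0.0909), nor was the liver factor Onecut1 (-2.11 ± 0.69, limma adjusted p = 0.0561). Igf1, the growth factor made on growth hormone's order, fell 1.26-fold, from a vehicle range of 13.89 to 14.14 to 13.77, 13.68 and 13.68. Its carrier Igfbp3 fell 1.88-fold (-0.91 ± 0.15, limma adjusted p = 0.00053). The growth factor receptor Egfr fell to 11.06, 11.19 and 10.80 from 11.50, 12.20 and 12.50, with its probe sets ranging from -1.14 to -0.11. The repressor Bcl6, which is higher in male than in female liver, read 11.06, 10.83 and 10.92 against a range of 7.08 to 10.74 and was not called (1.72 ± 0.96, limma adjusted p = 0.288).

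Sex-biased and steroid genes changed in both directions. Of 18 male-biased genes 2 rose and 5 fell (median -0.06), and of 18 female-biased genes 5 rose and 2 fell (median 0.30). Cyp2c11, the main male-specific cytochrome, fell 1.38-fold to 13.64, 13.93 and 13.71 from 14.07, 14.25 and 14.30. Cyp2c12, its female-specific counterpart, read 11.96, 11.33 and 11.46 against 10.42, 10.63 and 10.90 (0.93 ± 0.21), and that rise was lost without treated replicate 1 (limma adjusted p = 0.0707). The androgen-making Cyp17a1 fell to 7.03, 7.35 and 7.15 from 8.36, 8.78 and 9.35 (3.22-fold). Hsd17b2, which inactivates oestradiol and testosterone, rose to 12.38, 12.14 and 12.02 from 10.37, 10.48 and 11.02 (3.06-fold, limma adjusted p = 0.00212). Pgrmc1, a membrane haem protein that binds cytochromes, rose by 0.38 ± 0.06. Of the thyroid genes, the carrier protein Serpina7 fell to 8.29, 9.36 and 9.50 from 10.26, 10.81 and 11.27, a call lost without treated replicate 1 (limma adjusted p = 0.0533). Crym, which binds thyroid hormone inside the cell, fell to 10.08, 9.65 and 9.92 from 10.65, 10.89 and 10.98 (1.98-fold, limma adjusted p = 0.00155).

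The clock gene lists moved in opposite directions, although the list of activators and late-night genes holds repressors as well. Of 6 clock activators and late-night genes 4 fell (median -1.0), and of 14 clock output and repressor genes 8 rose (median 0.64), with no call in the opposite direction in either list. Bmal1, the core activator, fell to 7.51, 7.24 and 7.50 from 8.08, 8.55 and 8.84, and its partner Npas2 to 7.04, 7.06 and 7.52 from 8.77, 8.97 and 9.11. Cry1, a late repressor, fell by 0.90 ± 0.21 (limma adjusted p = 0.0108), and the output repressor Nfil3 fell to 8.96, 9.13 and 9.04 from 10.00, 10.27 and 10.68. Dbp, an output factor, rose to 8.62, 9.23 and 8.11 from 5.44, 5.77 and 6.10 (7.32-fold). The repressors of Bmal1 rose as well, Nr1d1 to 8.19, 8.43 and 8.16 from 5.77, 6.62 and 6.81, and Nr1d2 by 1.44 ± 0.24 with probe sets from 0.22 to 1.5. Per3, Tef and Cry2 rose on their brightest probe sets by 1.54, 0.75 and 0.62, with other probe sets as low as 0.08, 0.12 and 0.10. Clock (-0.03 ± 0.11) and Per2 (0.07 ± 0.07) were not called, although the other probe set of Per2 stood at 1.10. The labels give no hour of sampling, and whether it differed between the groups was not tested.

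Of 39 immediate early and growth arrest genes 6 fell and 2 rose (median -0.15). Egr1, induced by growth factors and handling stress, read 6.56, 6.20 and 6.56 against 7.77, 8.81 and 10.38 (-2.51 ± 0.60, limma adjusted p = 0.0112). Ier2 fell by 0.89 ± 0.18. Dusp6, a phosphatase that the ERK pathway switches on, fell by 1.23 ± 0.29, but not without treated replicate 1 (limma adjusted p = 0.0754). The cell cycle inhibitor Cdkn1a fell to 8.01, 7.85 and 7.90 from 9.56, 10.01 and 11.06, with -0.52 on its other probe set. The other direction was taken by Gadd45b, a CAR target and stress sensor, which rose to 7.50, 8.5 and 7.81 from 5.94, 6.13 and 6.74. Klf15, a glucocorticoid-responsive factor, rose by 0.85 ± 0.14, with other probe sets as low as -0.10. Mdm2, which sends p53 to breakdown, rose to 9.15, 9.34 and 9.24 from 8.27, 8.47 and 8.59 (1.76-fold). Of 20 p53 targets 2 rose and 3 fell (25% called, against 10.2% of all genes).

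Replication and mitosis genes spread widely among the treated rats. Of 50 DNA replication and S phase genes 9 rose and none fell (median 0.22), with list averages of 0.55, 0.01 and 0.29 in treated replicates 1, 2 and 3. The count was 2 without treated replicate 1, 1 without treated replicate 3, 20 without treated replicate 2 and 5 without vehicle replicate 3. Hells, a chromatin remodeller of dividing cells, was the member with a steady call, at 8.89, 8.51 and 8.77 against 7.67, 7.77 and 7.95 (1.90-fold, limma adjusted p = 0.00191). Mcm4, of the replicative helicase, rose by 0.71 ± 0.21, but not without treated replicate 1 (limma adjusted p = 0.275) or 3 (0.122), nor without vehicle replicate 2, 3 or 4 (0.0617, 0.0585 and 0.0596). None of 52 mitosis genes was called by limma, and 8 had an unadjusted p under 0.05. Their averages were 0.64, -0.25 and 0.50 against -0.45 to 0.44 in the vehicle arrays. The proliferation marker Mki67 read 6.96, 4.83 and 6.61 against 4.45, 5.43 and 6.31 (0.74 ± 0.61, limma adjusted p = 0.488), so replicates 1 and 3 were above all vehicle arrays and replicate 2 was inside their range. Cdk1 (7.51, 5.71 and 7.35) and Ccnb1 (6.44, 5.38 and 6.61) had replicate 2 lowest in the same way, and Pcna, a replication clamp, was not called (0.48 ± 0.16, limma adjusted p = 0.0546). Tumour and fetal liver markers were not called either, with Afp at -0.25 ± 0.13 and Gpc3 at -0.01 ± 0.16.

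**Figure D4:**
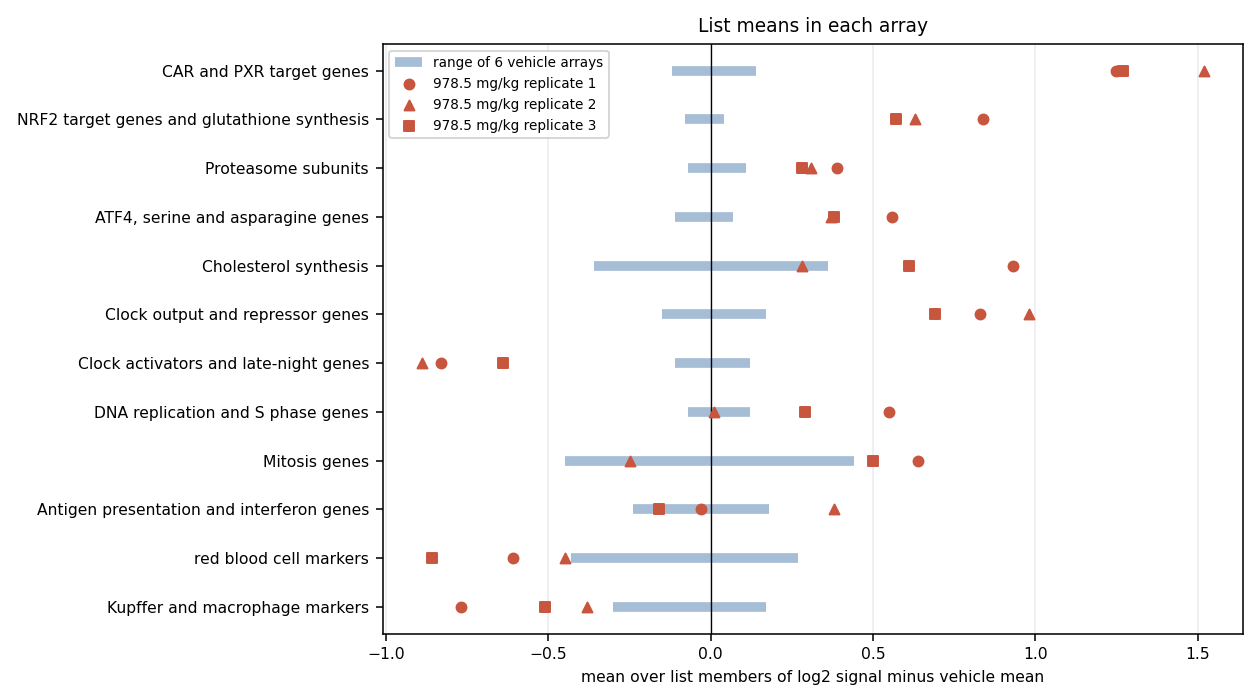
Mean of each of 12 gene lists on each treated array, as a log2 difference from the vehicle mean, with symbols by replicate and a bar for the range of the 6 vehicle arrays. In the proteasome and NRF2 lists the treated arrays lie close together above the vehicle, whereas in the mitosis list replicate 2, at -0.25, lies apart from replicates 1 and 3, at 0.64 and 0.50.

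Basic machinery outside the proteasome changed little. Of 68 respiratory chain subunits only Ndufb7 was called, and it fell by 0.31 ± 0.07 (limma adjusted p = 0.00776), with a median of 0.01 over the list. Of 52 ribosome biogenesis genes 1 rose and none fell (median 0.00). Of 42 cytosolic ribosomal proteins 5 fell and none rose (median -0.11, 37 lower). The count of falls was 1 without treated replicate 1 or 3, 2 without treated replicate 2 or vehicle replicate 2, 4, 5 or 6, and 3 without vehicle replicate 1. Rps23 gave the smallest p of them, at 13.47, 13.56 and 13.61 against 13.73, 13.79 and 13.92, and lost its call without treated replicate 1 (limma adjusted p = 0.0818).

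Secreted plasma proteins leaned slightly downward. Of 42 complement and coagulation genes 3 rose and 5 fell, with 34 lower and a median of -0.15. The falls numbered 1 without treated replicate 1 or 3 and 3 without vehicle replicate 1. Itih1, which stabilises hyaluronan, fell to 13.58, 13.72 and 13.66 from 13.94, 14.06 and 14.13 (limma adjusted p = 0.00059). Masp1, a protease of the lectin pathway, fell by 0.52 ± 0.11 on its brightest probe set and stood at 0.25 on another. The iron hormone Hamp was not called (0.15 ± 0.19). Of 36 acute phase genes 1 rose and 2 fell. Cd14, a receptor for bacterial lipopolysaccharide that hepatocytes also secrete, rose to 10.91, 11.43 and 11.39 from 10.19, 10.44 and 10.81.

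Markers of cells other than hepatocytes were mostly lower, as were 11 of 15 hepatocyte markers and 7869 of all 14218 genes. All 12 Kupffer cell and macrophage markers were lower (median -0.60), with list averages of -0.77, -0.38 and -0.51 in treated replicates 1, 2 and 3 against -0.30 to 0.17 in the vehicle arrays. A single one, the haemoglobin scavenger receptor Cd163, was called, at 7.52, 7.81 and 7.93 against 8.31, 8.56 and 8.79, and not without treated replicate 1 (limma adjusted p = 0.113). Clec4f, a Kupffer cell lectin (-0.75 ± 0.25, limma adjusted p = 0.0629), and the macrophage growth factor receptor Csf1r (-0.72 ± 0.25, limma adjusted p = 0.0711) were not called. All 17 markers of T, B and NK cells were lower (median -0.25) with 1 called. Of 8 neutrophil and monocyte markers 6 were lower (median -0.19), with no limma call and 2 with an unadjusted p under 0.05. Of 18 stellate cell and fibroblast markers 17 were lower (median -0.35) and 4 fell, or 2 without treated replicate 1 or 3. Among them was Pdgfrb, a growth factor receptor of these cells, at 6.65, 6.74 and 6.56 against 6.85, 7.51 and 7.64, with other probe sets as high as -0.05. Lox, a collagen cross-linking enzyme, read 4.98, 5.34 and 4.95 against 5.94, 6.95 and 8.89 (-2.14 ± 0.51), a call lost without treated replicate 3 (limma adjusted p = 0.0553). Endothelial markers had no limma call in 13 (median -0.14, 1 with an unadjusted p under 0.05), and 2 of 8 bile duct markers rose, of which Epcam reached 9.83, 10.05 and 9.82 from 8.92, 9.32 and 9.45.

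Of 8 red cell genes 3 fell, and none without treated replicate 3, with list averages of -0.61, -0.45 and -0.86 against -0.43 to 0.27 in the vehicle arrays. The alpha globin Hba-a3 read 10.40, 10.84 and 10.03 against 11, 12.03 and 12.22, and Alas2, the red cell form of the first haem enzyme, 6.78, 7.02 and 5.97 against 7.23, 8.11 and 8.70. Neither call held without treated replicate 3 (limma adjusted p = 0.0571 and 0.0849), nor did that of the beta globin Hbb without treated replicate 1 or 3 (limma adjusted p = 0.0538 and 0.105). The part of cell composition or residual blood in any of the falls above was not tested.

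Against the next lower dose, 489.2 mg/kg with 3 arrays of rats treated in the same way, few genes differed. In limma 15 genes were called (0.106% of 14218), all higher at 978.5 mg/kg, and 13 of them had also risen against the vehicle. This contrast is the test of a difference between the doses. Their differences from the vehicle share the 6 vehicle arrays and are given side by side only. Sult2a2 differed most, by 3.29 ± 0.30 (limma adjusted p = 1.68e-05), at 3.78 above the vehicle for the higher dose and 0.49 for the lower. Ttc39a, a tetratricopeptide repeat protein, differed by 1.41 ± 0.17 (limma adjusted p = 0.000375), at 1.93 and 0.52. The carbonic anhydrase Car2 stood at 1.33 and 0.15, the acylphosphatase Acyp2 at 1.63 and 0.49, Gadd45b at 1.75 and 0.57, and Abcb1a at 2.26 and 1.13, with limma adjusted p-values between the doses of 0.0254, 0.0442, 0.0442 and 0.0392. The ubiquitin ligase Herc3 and the adaptor Bcar3 differed by 0.71 and 0.70, and Ugt2b10 by 0.58. Car2 and Herc3 had other probe sets at 0.36 and 0.07 against the vehicle. At 244.6 mg/kg Car2 read 8.69, 9.11 and 8.38, which overlapped its 9.14, 9.43 and 9.02 at 978.5 mg/kg. Rmdn2 and Insig2, a brake on sterol synthesis, were called between the doses but not against the vehicle. They lay below the vehicle at 489.2 mg/kg (-0.88 and -0.55) and near it at 978.5 mg/kg (0.06 and 0.24). The calls of Sult2a2 and Ttc39a held in 13 of 14 other settings, the exception being a fit to the compared arrays alone, and those of the other genes named here were lost without at least 1 array.

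**Figure D5:**
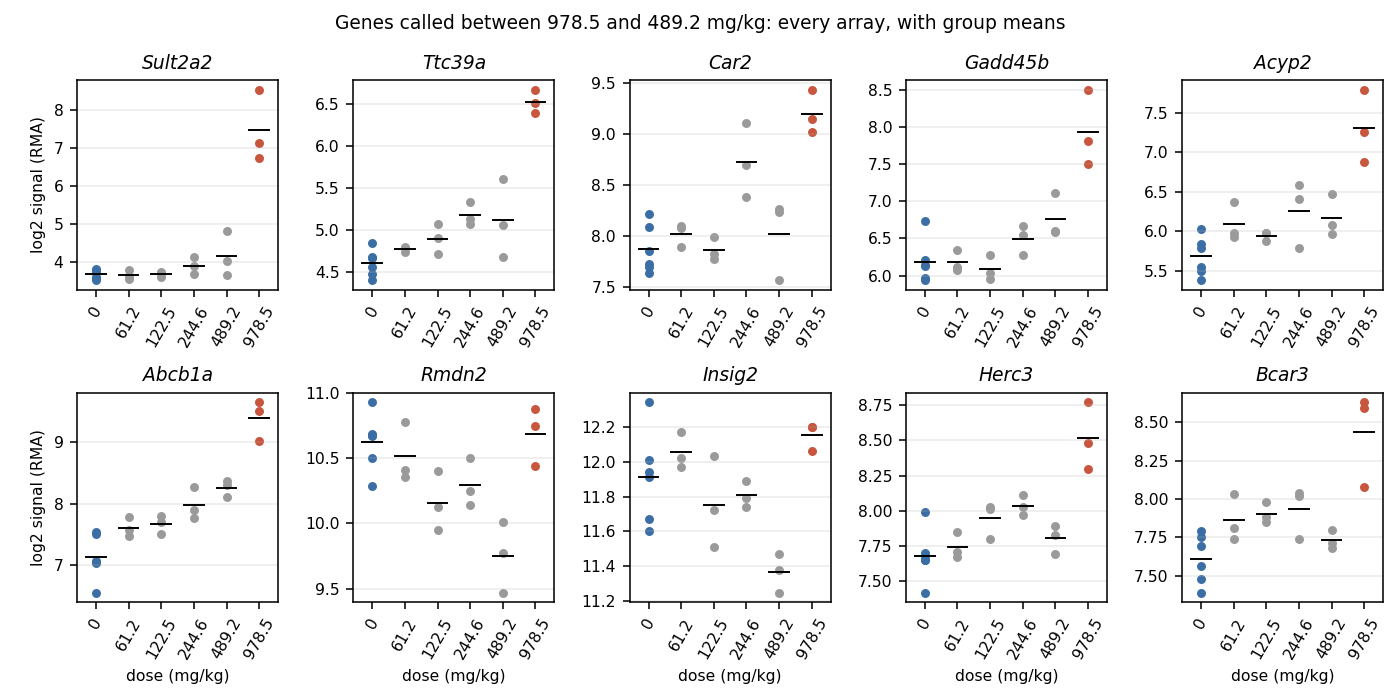
Log2 RMA signal of single arrays over the dose groups from vehicle to 978.5 mg/kg for the 10 genes with the largest called differences between 978.5 and 489.2 mg/kg, with short lines at the group means. In Sult2a2, Ttc39a, Gadd45b, Acyp2, Abcb1a, Herc3 and Bcar3 the arrays at 978.5 mg/kg lie above those of every other group. In Car2 they overlap the arrays at 244.6 mg/kg, and in Rmdn2 and Insig2 the group mean at 489.2 mg/kg is the lowest of the 6.

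Genes not called between the doses included Abcc3, Ces2c and Npas2. Abcc3 stood at 3.24 above the vehicle at 489.2 mg/kg and 3.50 at 978.5 mg/kg, Ces2c at 3.32 and 3.79, and Npas2 at -1.80 and -1.75. Between these doses limma gave adjusted p-values of 0.780, 0.502 and 0.933 for them, which does not show that the doses act alike. The proteasome list had a median of 0.22 at 489.2 mg/kg and 0.32 at 978.5 mg/kg, and none of its 40 members was called between the doses in limma (13 had an unadjusted p under 0.05). The mitosis list had a median of -0.19 at 489.2 mg/kg and 0.25 at 978.5 mg/kg. Its medians at 61.2, 122.5 and 244.6 mg/kg were 0.31, 0.34 and 1.61, so they did not follow the order of the doses.

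Of the 1457 called genes, 1133 were in none of the lists, and several of the largest changes belong to them. Zdhhc2, which attaches palmitate to proteins, rose to 8.69, 8.63 and 8.57 from 6.30, 6.84 and 7.13 (1.81 ± 0.17, limma adjusted p = 1.97e-06). Ttc39a read 6.39, 6.51 and 6.67 against 4.40, 4.6 and 4.84. Snx10, a sorting protein of endosomes, rose 3.74-fold on one probe set, with 0.88 on the other. Cryl1, a gulonate dehydrogenase, rose to 10.40, 10.60 and 9.96 from 8.37, 8.74 and 9.15 (3.01-fold). These rises were shared by all treated rats.

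Among the falls, Stac3, known from calcium channels of muscle, read 8.57, 7.90 and 8.42 against 10.27, 11.44 and 12.34 (-3.10 ± 0.52, limma adjusted p = 0.000912). Nrep, a neuronal regeneration protein, fell to 10.44, 10.05 and 10.39 from 11.35, 12.07 and 12.62, and the phosphate carrier Slc34a2 to 8.71, 8.25 and 8.21 from 9.40, 10.15 and 10.43. The beta tubulin Tubb2a fell to 11.37, 10.74 and 11.12 from 12.26, 12.47 and 12.77 (2.70-fold, limma adjusted p = 3.25e-05). The kinase Nim1k fell 2.81-fold and Cimap1b 2.32-fold. The peroxisomal hydroxyacid oxidase Hao2 fell to 11.74, 11.29 and 12.18 from 12.66, 12.69 and 12.91, and the triose kinase Tkfc by 0.93 ± 0.18 with 0.02 on its other probe set. Dhrs7l1, a dehydrogenase, spread most among the treated rats here, at 9.74, 8.74 and 10.60 against 11.38, 12.07 and 12.25, and differed by -2.25 ± 0.68 (limma adjusted p = 0.0392). That call was lost without any 1 of the treated replicates (adjusted p = 0.105, 0.165 and 0.0516) and without any 1 of vehicle replicates 1, 2, 4, 5 and 6 (adjusted p = 0.0565, 0.0634, 0.0583, 0.0573 and 0.0536).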

How the data were processed

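Liver RNA was hybridised to rat gene expression arrays, 100 ng of total RNA each. The authors deposited log2 signals made by RMA, per the submitters' processing notes, and their version was not given in the sources used here. Of 31099 probe sets, 20832 were paired with 1 gene, 436 with several and 9831 with none, and only the first were named. For each of 14218 genes, of which 4526 had 2 or more probe sets, the one of highest mean signal stood for the gene. Cyp2b2 and Ache were paired alone with no probe set in the annotation used and are not reported. Groups were compared with limma 3.58.1 in R 4.3.3 in 1 model over all 21 arrays (15 residual degrees of freedom), with p adjusted over all genes and calls at 0.05. The number of arrays limits the precision. Tables and figures were made with Python 3.11.15, pandas 2.3.3 and matplotlib 3.10.9. Only the limma fit was tested on simulated data, which held independent noise for each gene.

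The groups compared and the 62 gene lists (1750 of 2034 entries matched), written from general knowledge, were chosen with earlier results of these data known. Named genes were the 25 largest rises and falls with separate groups, the 4 smallest p of each list (all where 5 or fewer were called), the 8 called genes that spread most among treated arrays, the 10 largest differences from 489.2 mg/kg, and known genes. Some were left out for length, and genes outside this rule, such as Gpx2, Trib3 and the immunosubunits, were chosen after their values were seen. Promoter windows (27457 in the RefSeq table, 11734 of measured genes) were searched for fixed motifs. Alternatives were the mean of probe sets or every probe set, genes above the median level, another variance model, weights per array, arrays centred on their medians, a repeated quantile normalisation, values floored at their 20th percentile (5.56), other thresholds, only the arrays compared, the replicate number as a block and each array left out.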

Additional observations from a re-analysis of the deposited data

Results flagged for a closer look

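In the 6 vehicle arrays, 12 of the 195 genes tested had 1 array apart from the rest, with a gap to its neighbour beyond Dixon's 95% critical value for 6 samples. Chance gives about 1 in 20 groups such a gap.

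Vehicle replicate 4 was high in Akr7a3, an aflatoxin aldehyde reductase, at 11.81 with the next array at 11.34, and vehicle replicate 1 was high in Gpx2, at 6.10 with the next at 4.97. Both belong to the NRF2 list, and Akr7a3 still rose with all 3 treated arrays (13.48, 12.52 and 12.46) above it. Vehicle replicate 1 was low in Hbb, at 12.34 with the next at 13.22. Vehicle replicate 5 stood apart in Plin3 (9.96, next 9.64), Hamp (12.93, next 13.72) and Pnpla6 (6.97, next 7.12). Vehicle replicate 6 stood apart in Srebf1 (10.03, next 11.21) and Gadd45b (6.74, next 6.21). Of the clock genes, vehicle replicate 2 stood apart in Per3 (4.83, next 5.26) and in Clock (9.36, next 9.25). Vehicle replicate 3 was low in Masp1 (10.56, next 10.86) and Zdhhc2 (6.30, next 6.82). Of these genes Akr7a3, Plin3, Per3, Gadd45b, Hbb, Masp1 and Zdhhc2 were called by limma and were also called without the array that stood apart. Gpx2, Srebf1, Clock, Hamp and Pnpla6 were not called in either case.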

How the results depend on the processing

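The 1457 calls against the vehicle numbered 961 (554 rises) with only the arrays compared, 361 at 1.5-fold or more, 102 at 2-fold or more and 600 at adjusted p under 0.01. Leaving out 1 array gave 702 to 1594 calls, 461 to 996 rises and 241 to 598 falls, lowest without treated replicate 3 (702) and next without replicate 1 (904), and 98 to 115 calls of at least 2-fold. Of 158 called genes among 195 named, 141 to 157 were called with 1 array left out, 130 in each such fit and 123 under every alternative run. Of 324 called list members the count ran from 203 (without treated replicate 1) to 344. The 15 limma calls against 489.2 mg/kg became 42 with the mean of probe sets, 26 among genes above the median level, 27 with another variance model, 6 with array weights, 6 at 2-fold or more and 2 at adjusted p under 0.01. With only the arrays compared limma called 0, and 1471 had an unadjusted p under 0.05. Leaving out 1 array gave 2 to 126, with 2 and 126 without treated replicates 3 and 2, and 8, 44 and 3 without replicates 1, 2 and 3 of 489.2 mg/kg. No called gene named in the text reversed under any alternative, differences near 0 such as that of Hamp (0.15, and -0.01 without vehicle replicate 5) aside, and the cause of these changes was not tested.

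The labels state no pairing of samples by replicate number. Same-numbered deviations correlated at 0.11, 0.10 and -0.23 with the vehicle and 0.12, -0.03 and 0.09 with 489.2 mg/kg. Unlike-numbered deviations correlated at -0.15 to 0.14 with the vehicle and -0.15 to 0.04 with 489.2 mg/kg. So few values cannot settle whether the replicate numbers pair the samples. With the replicate block limma called 1382 genes (869 rises and 513 falls, 103 of at least 2-fold), and 22 against 489.2 mg/kg.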
